A study of Mus musculus with 16 samples.

Results

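The genes described here encode ionotropic glutamate receptors of the AMPA and NMDA type and the transmembrane AMPA receptor regulatory proteins (TARPs). They were chosen by gene symbol and are the 4 AMPA receptor subunits Gria1, Gria2, Gria3 and Gria4, the 3 NMDA receptor subunits Grin1, Grin2a and Grin2b, and the 3 TARPs Cacng2, Cacng3 and Cacng8. These are 10 of the 24972 genes measured, and each of them passed the filter on low values in every comparison. RNA-seq was done on dentate gyrus (DG), CA3 and CA1 dissected from the dorsal hippocampus of 3 trained and 3 untrained mice. There were 3 trained and 3 untrained libraries of CA1, and 3 trained and 2 untrained libraries each of CA3 and DG, 16 in all. A library is named here by its subregion label, its training group and the animal number that its title gives.

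Both groups of mice carried ArcCreERT2::eYFPflx on a C57BL/6 background, in which the Arc promoter drives an inducible Cre that switches on a fluorescent protein, and they were 3 to 4 months old. Trained mice received active place avoidance sessions, in which a sector of a turning platform delivered foot shocks. The untrained mice were placed on the same platform without shock. Memory was tested 24 h after training with the shock off for all mice, and tissue was taken 60 min after that test. Each library is bulk tissue that holds every cell type of the dissected piece, so that fewer cells of a type and less RNA per cell cannot be told apart. The study's methods list males and females in both training groups.

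AMPA receptors carry most fast excitatory current in the hippocampus. They are tetramers of the products of the Gria genes, and the edited form of the GluA2 subunit, from Gria2, makes the channel nearly impermeable to calcium. NMDA receptors open only when glutamate binds while the membrane is depolarized, and the calcium that enters through them starts long-term potentiation at CA1 synapses. Every NMDA receptor contains GluN1, from Grin1, together with GluN2 subunits such as GluN2A and GluN2B, from Grin2a and Grin2b, which set how long the channel stays open. TARPs bind AMPA receptors, bring them to the surface and the synapse, and slow their closing.

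The subregion labels were first compared with marker genes. The 4 markers of dentate granule cells (Prox1, Dsp, C1ql2 and Lct) were as high in libraries labelled CA1 and CA3 as in those labelled DG. Their summed normalized value ranged from 6800 to 8290 in CA1, from 5998 to 10297 in CA3 and from 7104 to 9150 in DG. Prox1, the transcription factor that defines granule cells, lay between 3052 and 3861 in CA1, between 2690 and 4786 in CA3 and between 3292 and 4183 in DG. None of the 4 granule markers differed between CA1 and DG at an unadjusted p under 0.05. The 4 CA1 pyramidal markers summed to between 3079 and 4998 in untrained CA1, but to between 1528 and 1943 in trained CA1, which overlaps the range of 1295 to 2010 in DG. The 4 CA3 pyramidal markers overlapped between all 3 labels, with a range of 639.8 to 1249 in CA3 and of 852.1 to 1129 in DG. No marker of the 3 lists was listed at 0 in any group. Between CA1 and CA3 all 4 CA1 markers were higher in CA1 at an unadjusted p under 0.05, with a median log2 difference of 1.08 and none called by limma. Of the CA3 markers 2 of 4 had such a p in that comparison (median -0.38) and 2 of 4 between CA1 and DG (median -0.34), again with none called. Within each training group their sum was lower in CA1 (574.6 to 609.2 untrained and 840.7 to 951.1 trained) than in CA3 (639.8 to 932.3 untrained and 986.5 to 1249 trained). The granule markers did not separate the labels. CA1, CA3 and DG below stand for the labels of the libraries.

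**Figure D1:**
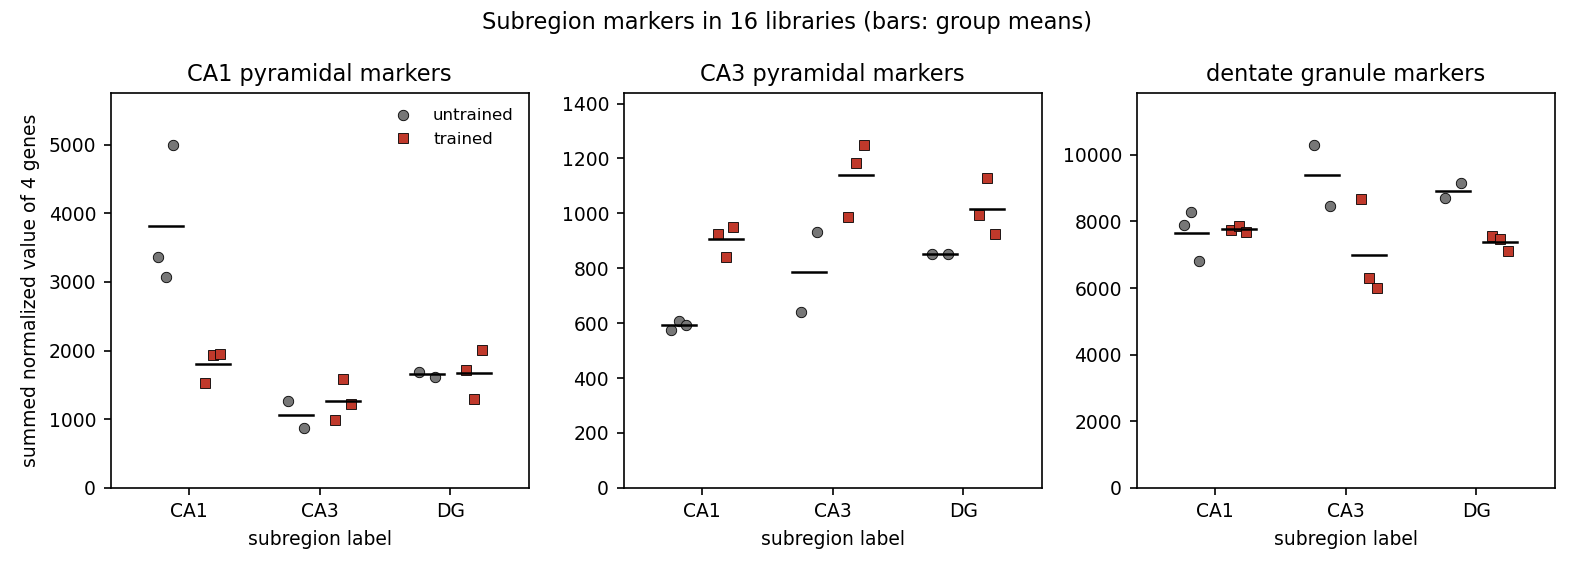
Summed normalized value of the 4 CA1 pyramidal, 4 CA3 pyramidal and 4 dentate granule markers in each library (y axis, from 0) by subregion label (x axis), with untrained libraries as grey circles, trained libraries as red squares and group means as bars. Granule markers reach similar sums under all 3 labels, and untrained CA1 libraries have the highest CA1 sums, 3079 to 4998.

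Other properties of the libraries also moved with the groups. The values had been normalized before deposit and summed to between 7607326 and 7984931 per library. In 7 libraries 7567 to 9759 genes were listed at 0, against 3124 to 5944 in the other 9. The 7 libraries were all 3 of trained CA1, trained CA3 of animals 1 and 2 and both of untrained DG. Xist, the RNA that silences one X chromosome in females, was at least 7601 in all trained libraries and at most 52.4 in 6 of the 7 untrained ones. It was 10587 in CA3 of untrained animal 1, whose CA1 and DG libraries had 26.1 and 25.5. Sex-linked transcripts and training thus separated nearly the same libraries, which goes against the sexes that the methods list. Several libraries with high Xist also had the Y-linked Ddx3y. Its value was 255.2 in DG trained 3, 201.4 in CA3 untrained 1, 100.6 in CA1 trained 3, 92.9 in CA3 trained 3 and 70.9 in CA1 trained 1, against 1.66 to 12.9 in the other high-Xist libraries and 448.4 to 552.8 in those with low Xist. Calls that were lost without the libraries labelled CA3 untrained 1 and DG trained 3, which had the highest of the mixed values, are given beside the results.

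Among the AMPA receptor subunits, Gria1 was the most abundant and Gria4 the least. Levels are compared between genes only per kilobase of merged exon length. On that scale Gria1 had 2094 ± 91.1, Gria2 691.3 ± 29.4, Gria3 241.7 ± 19.2 and Gria4 62.2 ± 7.32 normalized units per kb (SD, n = 16 libraries). Gria1 made up 67.8% of the summed AMPA receptor level, Gria2 22.4%, Gria3 7.82% and Gria4 2.02%. The shares moved little between libraries, from 66.6% to 70.0% for Gria1 and from 20.9% to 23.2% for Gria2. They do depend on the length used. With the longest annotated transcript in place of all merged exons, the share of Gria1 was 59.3% and that of Gria2 26.9%.

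Of the NMDA receptor subunits, Grin2b and Grin2a had the higher levels per kb of merged exons. Grin2b had 800.9 ± 68.6 and Grin2a 729.0 ± 54.7, whereas the obligatory Grin1 had 338.5 ± 23.7 normalized units per kb (SD, n = 16). With the longest transcript these levels were 826.9 for Grin2b, 893.3 for Grin2a and 767.9 for Grin1, so that the order of Grin2a and Grin2b reversed and Grin1 came close to both. Of the 3 TARPs, Cacng8, which encodes γ-8, the TARP known for its enrichment in hippocampus, had 303.2 ± 28.4 units per kb and 65.4% of their sum. Cacng3, which encodes γ-3, had 100.4 ± 11.4 and Cacng2, which encodes stargazin or γ-2, had 60.1 ± 8.38 units per kb. Cacng8 remained first of the 3 with the longest transcript, at 374.8 units per kb.

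By the median, the 10 genes varied slightly less across the 16 libraries than other genes, which were not matched to them for level. Their median coefficient of variation was 8.26%, against 9.68% for the 8883 genes of mean normalized value at least 100 and 13.3% for the 14673 genes that passed the filter. Gria2 varied least, with 4.25%, and Cacng2 most, with 14.0%. Gria4 and Cacng3 also varied more than the median of 9.68%. The highest value of Cacng2 was 1.52 times the lowest, the widest range of the 10. The plot of normalized values by library shows each gene.

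**Figure D2:**
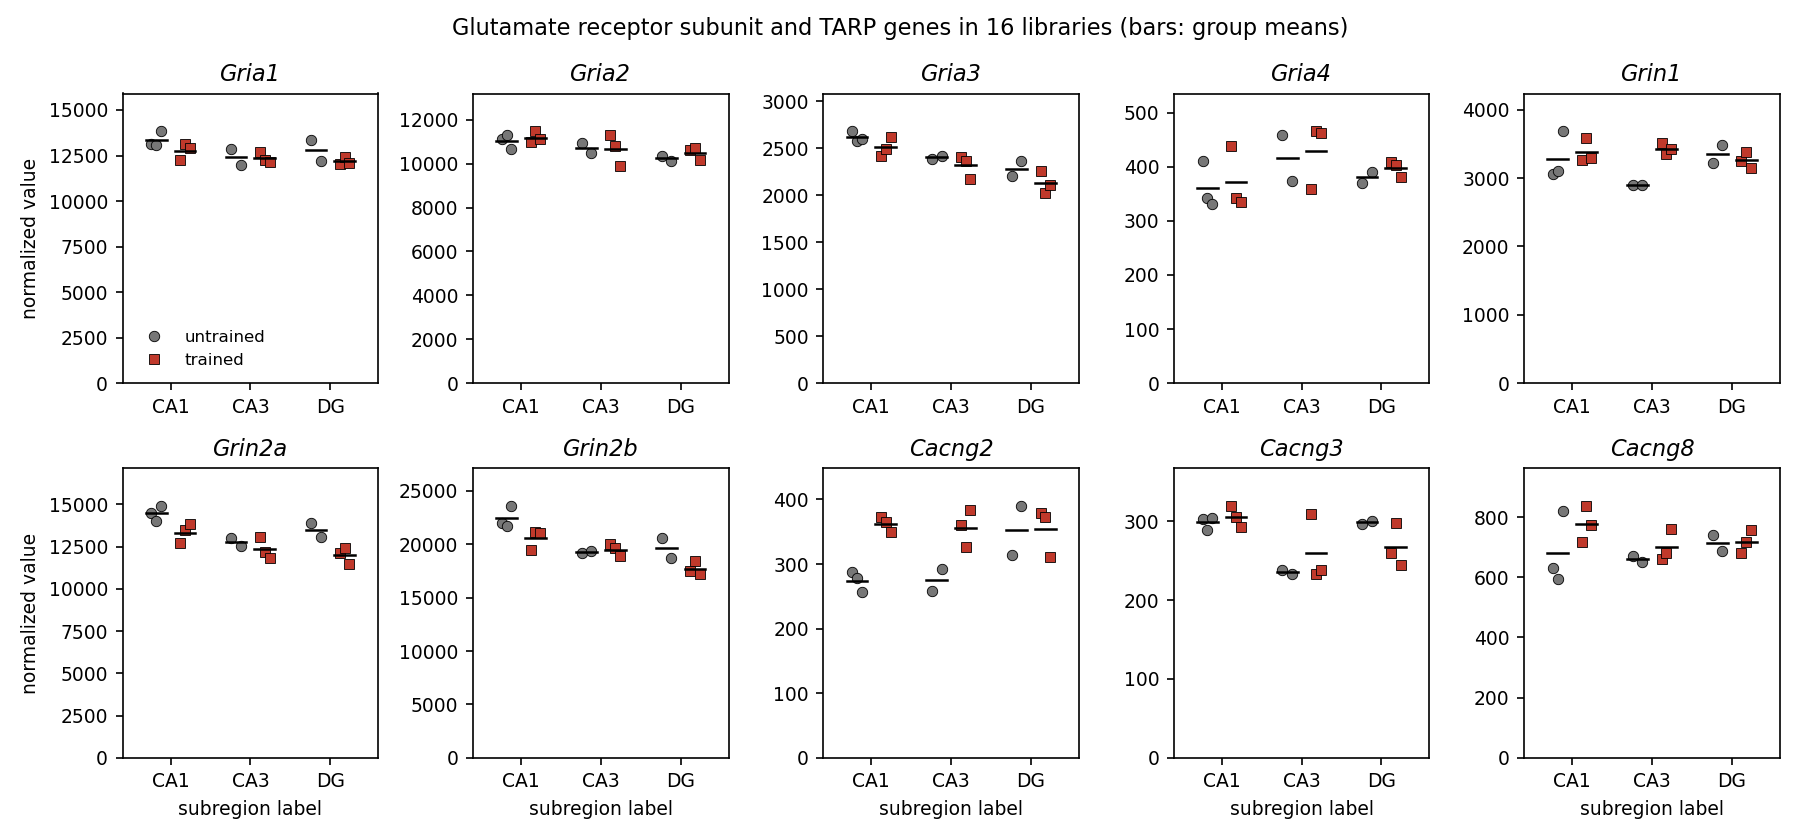
Normalized value of each of the 10 genes (y axes, from 0, separate for each gene) by subregion label (x axis), with untrained libraries as grey circles, trained libraries as red squares and group means as bars. Trained libraries of Cacng2 (350 to 372 in CA1) lie above the untrained ones (256 to 288) in CA1 and in CA3 but not in DG.

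The first question was which of these genes differed between trained and untrained mice. Over all 16 libraries, with subregion as a term, Cacng2 rose and Grin2a fell, and limma called none of the other 8 genes. This is 2 of 10 genes, where 10.3% of the 14673 genes tested passed (6.28% higher and 4.06% lower). The median difference of the 10 genes was 0.01 on the log2 scale, and that of all genes tested was -0.01. Differences are trained minus untrained on log2(normalized value + 2), and a gene is called where its limma adjusted p is under 0.05. Libraries of the same animal entered as separate samples, so that the 16 libraries come from 6 animals. Without untrained animal 3 the called genes were Cacng2 and Grin1, the latter at 0.15 on the log2 scale (limma adjusted p = 0.0206) in place of 0.08, while Grin2a was not called (limma adjusted p = 0.0628).

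Cacng2 lies on chromosome 15 of GRCm38 from 77991748 to 78120028 on the minus strand. In CA1 its normalized value was 288, 278 and 256 in the untrained libraries and 372, 365 and 350 in the trained ones. All 3 trained libraries were above all 3 untrained ones. In CA3 it was 259 and 292 in untrained and 360, 326 and 383 in trained libraries, again without overlap. In DG it was 314 and 390 in untrained and 379, 373 and 311 in trained libraries, which overlapped. Over all libraries the difference was 0.27 on the log2 scale (standard error (SE) 0.070, 95% confidence interval 0.13 to 0.42, limma adjusted p = 0.0142), a 1.21-fold higher level in trained mice. In CA1 alone it was 0.40 (SE 0.092, 95% confidence interval 0.21 to 0.59, limma adjusted p = 0.0133), or 1.32-fold. In CA1, 5.23% of 13588 genes were called (3.53% higher), and Cacng2 was the only one of the 10. Groups that do not overlap with the trained libraries higher, as for Cacng2, were found in 12.9% of genes in CA1 and in 17.2% in CA3.

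In CA3 the difference of Cacng2 was 0.37 on the log2 scale (SE 0.104) and was not called (limma adjusted p = 0.124). In DG it was 0.01 (SE 0.120, limma adjusted p = 0.973, 95% confidence interval -0.24 to 0.27). The differences of CA1 and DG were compared with each other as an interaction in a limma fit of all libraries, in which 2.75% of genes were called and 17.8% had an unadjusted p under 0.05. The training effect on Cacng2 was larger in CA1 than in DG by 0.39 on the log2 scale (95% confidence interval 0.08 to 0.70), with an unadjusted p of 0.0158 and a limma adjusted p of 0.164. Without untrained animal 3 this value was 0.19 and without untrained animal 1 it was 0.58, and the DG difference itself was 0.17 and -0.14 in the same cases. The libraries with many genes at 0 were the trained ones in CA1 and the untrained ones in DG, so that this split and the interaction cannot be told apart. Between CA3 and DG the effects differed by 0.36 (limma adjusted p = 0.386, where 0.164% of genes were called and 11.7% had an unadjusted p under 0.05). With a correction for GC content and length the difference between CA1 and DG was 0.53 and was called (limma adjusted p = 0.0287), so that the call depends on this setting. That fit called 1273 of 14484 genes, and the median value of all genes in it was 0.139. Of the 10 genes, limma without that correction called no interaction in any pair of subregions, and 1 (Cacng2) had an unadjusted p under 0.05 between CA1 and DG, 3 (Cacng2, Grin1 and Grin2b) between CA3 and DG and 0 between CA1 and CA3, where 0.0273% of all genes were called and 6.71% had such a p.

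The call of Cacng2 was lost when some animals were left out and when a sex-linked score was added. Leaving out 1 animal at a time, the difference over all libraries lay between 0.23 and 0.32, and the limma adjusted p passed 0.05 in 2 of 6 cases, with a range of 0.00245 to 0.146. In CA1 the adjusted p was 0.0597 without trained animal 1 and 0.0654 without trained animal 2. With a score of sex-linked transcripts as a covariate the difference was 0.33 with an adjusted p of 0.476, and no gene of the whole table was called. With a term for the 7 libraries that had many genes at 0 it was 0.23 with an adjusted p of 0.0246. In CA1 this split coincides with training, so that the split and training cannot be told apart there.

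Marker genes of CA1 and CA3 pyramidal cells differed between trained and untrained CA1 libraries as well. In that comparison 1 of 4 CA1 markers was called lower (Fibcd1, which fell by 1.32 on the log2 scale), and of the 4 CA3 markers Nectin3 and Grik4 were called higher and Coch lower. Of 4 general neuronal markers, Snap25 (0.40 on the log2 scale) and Rbfox3 (0.27) were called higher. Of 4 granule markers Lct was called lower and of 5 astrocyte markers Aqp4. None of 5 interneuron markers was called, and their sum lay between 3296 and 3566 in all CA1 libraries. The summed choroid plexus markers were 972.2 to 1139 in untrained CA1 and 304.9 to 2347 in trained CA1, with none of the 3 that passed the filter called. The part of these markers in the difference of Cacng2 was not tested.

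Grin2a and Grin2b lay lower in trained mice in CA1 and DG. Grin2a is on chromosome 16 of GRCm38 from 9567898 to 9995560 and Grin2b on chromosome 6 from 135713233 to 136173511, both on the minus strand. In CA1 the normalized value of Grin2a was 14513, 14015 and 14918 in untrained and 12702, 13474 and 13823 in trained libraries. In DG it was 13909 and 13076 in untrained and 12115, 12434 and 11472 in trained libraries. The groups did not overlap in either subregion. In CA3 it was 13046 and 12566 against 13085, 12207 and 11808, with overlap. Over all libraries Grin2a fell by 0.11 on the log2 scale (SE 0.034, limma adjusted p = 0.0331), a level 0.924 times that of untrained mice.

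Within a subregion Grin2a was not called. Its log2 difference was -0.12 in CA1 (limma adjusted p = 0.0936), -0.17 in DG (limma adjusted p = 0.0834) and -0.05 in CA3 (limma adjusted p = 0.767). In DG it was called with a correction for GC content and length (-0.17, adjusted p = 0.044), where 604 of 13769 genes were called. Without untrained animal 3 it was -0.21 and without untrained animal 1 -0.12, each with a single untrained DG library left. The difference over all libraries lost its call in 5 of 6 cases with 1 animal left out, where the adjusted p lay between 0.0349 and 0.23, although the value stayed between -0.14 and -0.09. Without the libraries CA3 untrained 1 and DG trained 3 it was -0.10 with an adjusted p of 0.0925. With the GC and length correction the difference over all libraries was -0.05 with an adjusted p of 0.488.

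Grin2b followed the same pattern of values. In CA1 its normalized value was 22028, 21666 and 23591 in untrained and 19428, 21136 and 21072 in trained libraries. In DG it was 20604 and 18691 in untrained and 17497, 18422 and 17210 in trained libraries. Trained libraries were below untrained ones without overlap in both. In CA3 it was 19133 and 19359 against 19977, 19628 and 18882, which overlapped. The log2 difference was -0.13 in CA1 (limma adjusted p = 0.0825), -0.15 in DG (limma adjusted p = 0.124), 0.02 in CA3 (limma adjusted p = 0.921) and -0.09 over all libraries (limma adjusted p = 0.109). None of these was called. DG showed a call for Grin2b with the GC and length correction (-0.17, adjusted p = 0.0464), where 604 of 13769 genes were called. With a single untrained DG library left, the DG difference was -0.22 without untrained animal 3 and -0.08 without untrained animal 1. With the correction the difference over all libraries was -0.04 (adjusted p = 0.696).

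Granule and endothelial markers had lower sums in trained than in untrained DG. The 4 granule markers summed to 7104 to 7570 in trained and to 8696 and 9150 in untrained libraries, with Prox1 called lower. The 3 endothelial markers summed to 252.7 to 267 in trained and to 410.6 and 504.2 in untrained libraries, with Flt1 called lower (-0.94 on the log2 scale). Of 3 CA2 markers Pcp4 was called lower. The 4 oligodendrocyte markers also had lower sums in trained DG (12675 to 13616 against 14423 and 18628), and the 5 interneuron markers higher ones (3539 to 3713 against 3186 and 3457), each with 2 markers at an unadjusted p under 0.05 and none called. The part of these markers in the values of Grin2a and Grin2b was not tested. In DG, as in CA1, the split by many genes at 0 coincides with training, so that the split and training cannot be told apart there.

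Grin1 had higher values in trained than in untrained CA3 libraries, a difference that was not called. The gene lies on chromosome 2 of GRCm38 from 25291181 to 25319187 on the minus strand. In CA3 its normalized value was 2902 and 2893 in untrained and 3515, 3356 and 3421 in trained libraries, so that all trained libraries were higher. In CA1 it was 3055, 3096 and 3683 against 3264, 3585 and 3287, and in DG 3222 and 3482 against 3250, 3387 and 3139, both with overlap. The log2 difference in CA3 was 0.24 (SE 0.069, 95% confidence interval 0.09 to 0.40), at an unadjusted p of 0.00504 and a limma adjusted p of 0.128. Without untrained animal 1 a single untrained CA3 library remained, and the difference was 0.25 with an adjusted p of 0.516. With the GC and length correction it was 0.10 with an adjusted p of 0.58. The training effect on Grin1 was larger in CA3 than in DG by 0.28 (95% confidence interval 0.07 to 0.49), with an unadjusted p of 0.00997 and a limma adjusted p of 0.265. In CA3 the choroid plexus markers summed to 768.9 and 1077 in untrained and to 229.7 to 307.7 in trained libraries. Of these 4 markers Ttr, the main secreted protein of that tissue, was called lower (560.5 and 834 against 66.2 to 72.4). The granule markers had a median log2 difference of -0.41 with none called. Of 5 interneuron markers Sst was called higher (201.8 and 181.8 against 313.5 to 384.5), and of 5 astrocyte markers Aqp4 (-0.46) and Gja1 (-0.31) had an unadjusted p under 0.05 without a call. The 4 CA3 pyramidal markers summed to 639.8 and 932.3 in untrained and to 986.5 to 1249 in trained CA3. Of these, 2 were higher and 2 lower in trained libraries, with 3 at an unadjusted p under 0.05 and none called. The part of all these markers in the values of Grin1 and Cacng2 was not tested.

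In CA3 limma called none of the 10 genes and 0.852% of 13848 genes. At an unadjusted p under 0.05 the 10 genes gave 2, Grin1 and Cacng2, where 15.8% of all genes passed. In DG limma called none of the 10 and 3.39% of 13935 genes, with 2 at an unadjusted p under 0.05, Grin2a and Grin2b, where 19.5% of all genes passed. Groups that do not overlap are common in these small designs. In CA1 trained libraries were wholly higher for 1 of the 10 (12.9% of all genes) and wholly lower for 2 (11.1%). In CA3 they were wholly higher for 2 of the 10 (17.2% of all genes), and in DG wholly lower for 2 (18.2%). None of the 10 was separated in one direction in all 3 subregions, as 2.92% of all genes were.

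**Figure D3:**
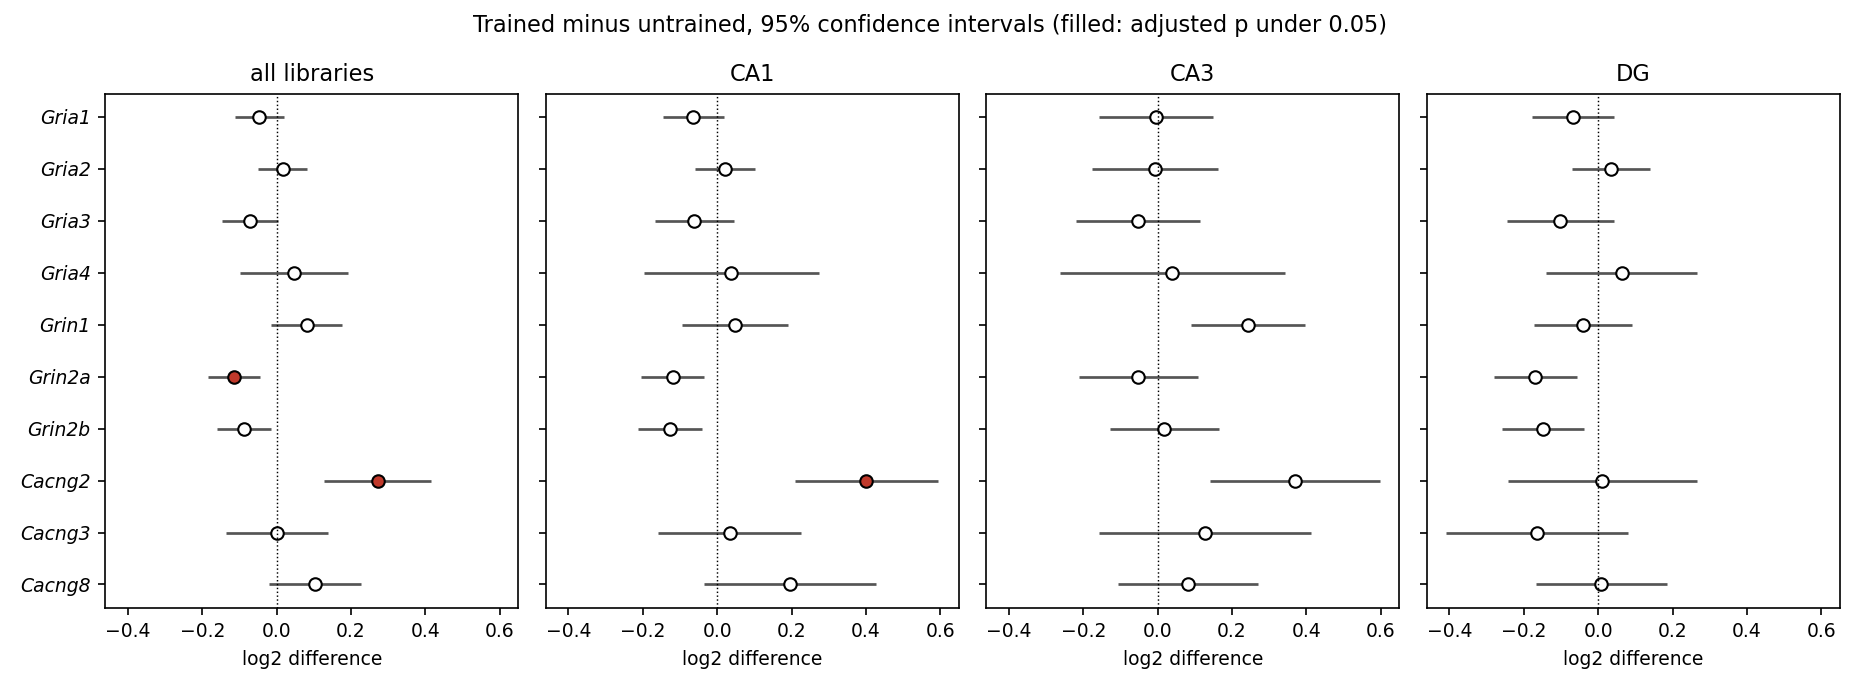
Trained minus untrained difference of each gene on log2(normalized value + 2) (x axis) over all 16 libraries and in CA1, CA3 and DG, with lines for 95% confidence intervals and filled points for a limma adjusted p under 0.05. Filled points are Cacng2 (0.27) and Grin2a (-0.11) over all libraries and Cacng2 (0.40) in CA1.

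The AMPA receptor subunits showed no called difference with training. Gria1 lies on chromosome 11 from 57011387 to 57330244, Gria2 on chromosome 3 from 80681450 to 80802835, Gria3 on chromosome X from 41400854 to 41678601 and Gria4 on chromosome 9 from 4417896 to 4796234. Gria1 was 13138, 13063 and 13830 in untrained CA1 and 12269, 13139 and 12897 in trained CA1, with overlap. Its log2 difference over all libraries was -0.05 with a 95% confidence interval of -0.11 to 0.02 (limma adjusted p = 0.381). Gria2 was 11113, 11289 and 10672 in untrained CA1 and 10968, 11470 and 11108 in trained CA1. Its difference over all libraries was 0.02 with an interval of -0.05 to 0.08 (limma adjusted p = 0.803).

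Gria3, which encodes GluA3, differed by -0.07 over all libraries (95% confidence interval -0.15 to 0.00, limma adjusted p = 0.23). Since it is X-linked and Xist separated nearly the same libraries as training, the part of the sex-linked split in this value cannot be told apart from training. Gria4, which encodes GluA4, the subunit known from interneurons and immature pyramidal cells, differed by 0.05 with the wider interval of -0.10 to 0.19 (limma adjusted p = 0.728). Its libraries were scattered within groups, for example 439, 342 and 336 in trained CA1 and 358, 465 and 463 in trained CA3. With the GC and length correction the differences over all libraries were 0.02 for Gria1, 0.10 for Gria2, 0.01 for Gria3 and 0.12 for Gria4, with none called, so that those of Gria1 and Gria3 changed sign. With the score of sex-linked transcripts as a covariate they were -0.10 for Gria1, -0.11 for Gria2, -0.09 for Gria3 and -0.07 for Gria4, again with none called, and those of Gria2 and Gria4 changed sign.

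The other TARPs were not called. Cacng8 lies on chromosome 7 from 3390683 to 3415648 and Cacng3 on the same chromosome from 122670492 to 122769393. Cacng8 was 632, 595 and 819 in untrained CA1 and 717, 837 and 773 in trained CA1, and untrained animal 3 lay among the trained libraries. Its log2 difference in CA1 was 0.20 (limma adjusted p = 0.357), and without untrained animal 3 it was 0.33 with an adjusted p of 0.0118. Over all libraries it was 0.10 (95% confidence interval -0.02 to 0.23, limma adjusted p = 0.288). With the GC and length correction these differences were 0.05 in CA1 (adjusted p = 0.806) and -0.09 over all libraries (adjusted p = 0.443). Cacng3 had a difference of 0.00 over all libraries (95% confidence interval -0.14 to 0.14, limma adjusted p = 0.992). In CA3 it was 238 and 233 in untrained libraries and 309, 233 and 238 in trained ones, where trained animal 1 alone stood out.

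The second question was how the genes differed between subregion labels. Of the 10 genes, Gria3 and Grin2b were higher in CA1 than in DG, where limma called 1.95% of 14673 genes (1.12% higher). No gene of the 10 was called between CA1 and CA3, where 0.211% of all genes were called. Between CA3 and DG limma called no gene at all, and 715 genes (4.87%) had an unadjusted p under 0.05, Gria3 among them. At an unadjusted p under 0.05 the 10 genes gave 5 between CA1 and CA3, where 8.72% of all genes passed.

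Gria3 had its lowest, median and highest normalized values at 2419, 2590 and 2682 in the 6 CA1 libraries. These were 2179, 2387 and 2423 in the 5 CA3 libraries and 2022, 2207 and 2363 in the 5 DG libraries. Every CA1 library was above every DG library, a separation in this direction that 1.14% of all genes showed. The difference between CA1 and DG was 0.22 on the log2 scale (SE 0.044, 95% confidence interval 0.13 to 0.31, limma adjusted p = 0.0136), or 1.17-fold. The neighbours in the order CA1, CA3 and DG overlapped. Gria3 was also separated within each training group, with untrained CA1 at 2582 to 2682 against 2207 to 2363 in untrained DG, and trained CA1 at 2419 to 2621 against 2022 to 2254 in trained DG.

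Grin2b had its lowest, median and highest values at 19428, 21401 and 23591 in CA1, at 18882, 19359 and 19977 in CA3 and at 17210, 18422 and 20604 in DG. The difference between CA1 and DG was 0.21 on the log2 scale (SE 0.042, 95% confidence interval 0.12 to 0.30, limma adjusted p = 0.0136), or 1.16-fold. The CA1 and DG libraries overlapped over both training groups, but within each group all CA1 libraries were above all DG libraries. Without trained animal 2 the adjusted p was 0.0927 for Gria3 and 0.0835 for Grin2b, and without trained animal 3 that of Grin2b was 0.0575. With a correction for GC content and length it was 0.0579 for Gria3 and 0.0925 for Grin2b, while the differences remained at 0.21 and 0.20.

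In the same comparison, 2 of 4 CA1 pyramidal markers had an unadjusted p under 0.05 and none was called. Their median difference was 0.59 on the log2 scale, that of the granule markers was -0.06 and that of the 3 endothelial markers 0.68. All 4 choroid plexus markers were higher in CA1 (median 0.92, 3 at an unadjusted p under 0.05). All 4 CA3 pyramidal markers (median -0.34) and all 4 general neuronal markers (median -0.11) were lower, with 2 of each at such a p. None of these was called. The part of these markers in the differences of Gria3 and Grin2b was not tested.

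For the other members the difference between CA1 and DG was not called. Grin2a was 0.13 higher in CA1 on the log2 scale (limma adjusted p = 0.0859) and Gria2 0.10 higher (limma adjusted p = 0.191). Gria1 differed by 0.07, Cacng3 by 0.11, Cacng8 by 0.03, Grin1 by 0.02, Gria4 by -0.10 and Cacng2 by -0.13, each with a limma adjusted p of at least 0.394. The value of Cacng2 was -0.02 without untrained animal 3 and -0.20 without CA3 untrained 1 and DG trained 3, and it was called in neither case. Between CA1 and CA3, Cacng3 had the largest difference of the 10, 0.28 on the log2 scale (SE 0.080, limma adjusted p = 0.153). Its median was 303 in CA1, 238 in CA3 and 297 in DG. Mean values were highest in CA1 for 8 of the 10 genes, in CA3 for Gria4 and in DG for Cacng2. For each gene, the libraries of neighbouring subregions in that order overlapped.

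**Figure D4:**
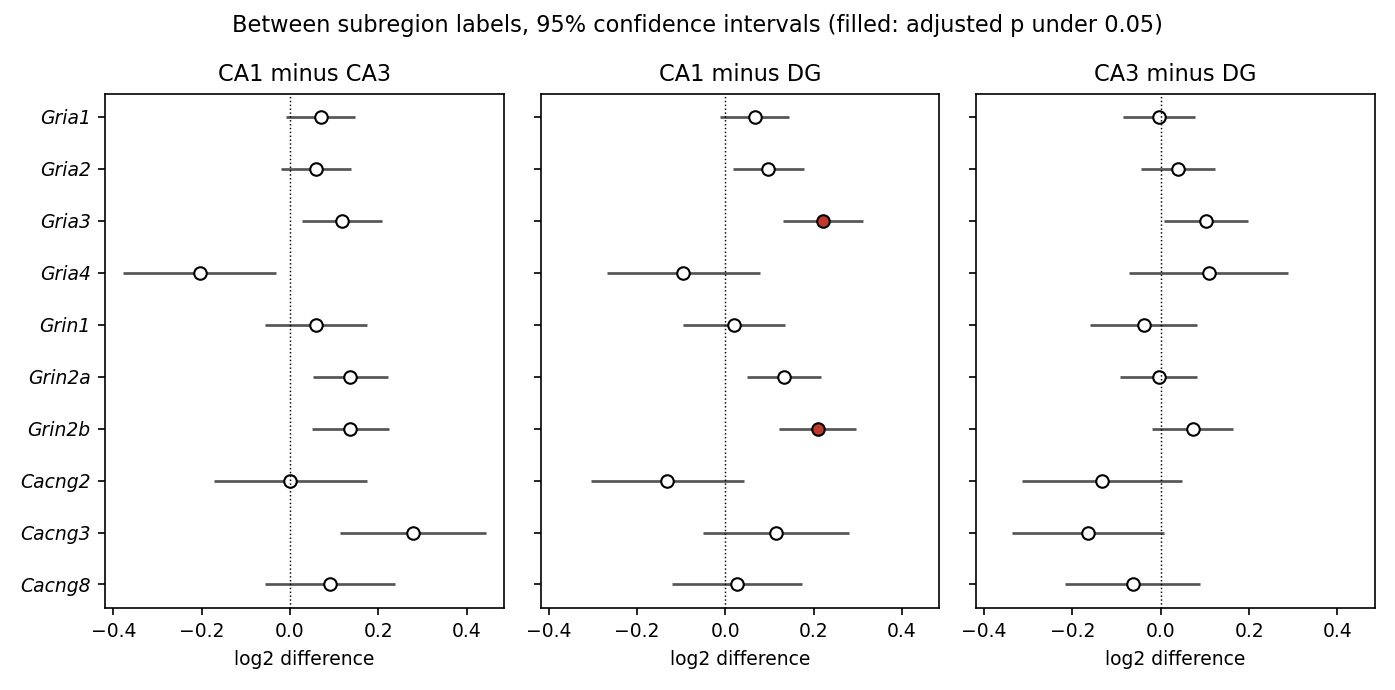
Difference between subregion labels of each gene on log2(normalized value + 2) (x axis), with lines for 95% confidence intervals and filled points for a limma adjusted p under 0.05. Filled points are Gria3 (0.22) and Grin2b (0.21) for CA1 minus DG.

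Ratios of a pair of genes were taken within each library after 2 was added to each normalized value. The ratio of Grin2a to Grin2b, which is known to rise during postnatal development, lay between 0.632 and 0.659 in the 6 CA1 libraries, between 0.622 and 0.682 in the 5 CA3 libraries and between 0.667 and 0.700 in the 5 DG libraries. All DG libraries were above all CA1 libraries. The log2 ratio was lower in CA1 than in DG by 0.07 (two-sided exact permutation test over libraries, p = 0.00433, the smallest p these groups allow, and 0.039 after Benjamini-Hochberg adjustment over the 9 subregion comparisons of ratios). Between CA3 and DG it differed by -0.08 (exact permutation p = 0.0317, adjusted 0.143). Permuting libraries treats those of one animal as independent. Paired within the 5 animals with both subregions, the CA1 and DG difference was -0.07 and had the same sign in every animal, with an exact permutation p of 0.0625, the smallest p that 5 animals allow, and 0.562 after adjustment. The call was also absent without CA3 untrained 1 and DG trained 3 (exact permutation, adjusted p = 0.0857). The same held with any 1 animal left out (adjusted 0.0714 to 0.143), while the difference stayed between -0.0859 and -0.0579. In each of these cases all remaining DG libraries were still above all remaining CA1 libraries. With 9 comparisons adjusted together, the animals or libraries left were too few for even full separation to be called. The paired test and these cases therefore cannot decide whether the call holds.

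The ratio of Gria1 to Gria2 lay between 1.12 and 1.296 in CA1, between 1.13 and 1.23 in CA3 and between 1.14 and 1.29 in DG. The ratio of Cacng8 to Cacng2 lay between 1.92 and 3.18 in CA1, between 1.84 and 2.58 in CA3 and between 1.75 and 2.42 in DG. For neither ratio did a difference between subregions pass the test (exact permutation p from 0.255 to 0.701, n = 5 to 6 libraries each, with the smallest adjusted value at 0.679). Between trained and untrained mice, with 1 mean deviation per animal, the log2 ratio differed by -0.16 for Cacng8 to Cacng2, by -0.06 for Gria1 to Gria2 and by -0.02 for Grin2a to Grin2b. The exact permutation p-values were 0.2, 0.2 and 0.3 (n = 3 animals each, adjusted 0.3 for each), and 3 animals against 3 cannot go below 0.10.

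**Figure D5:**
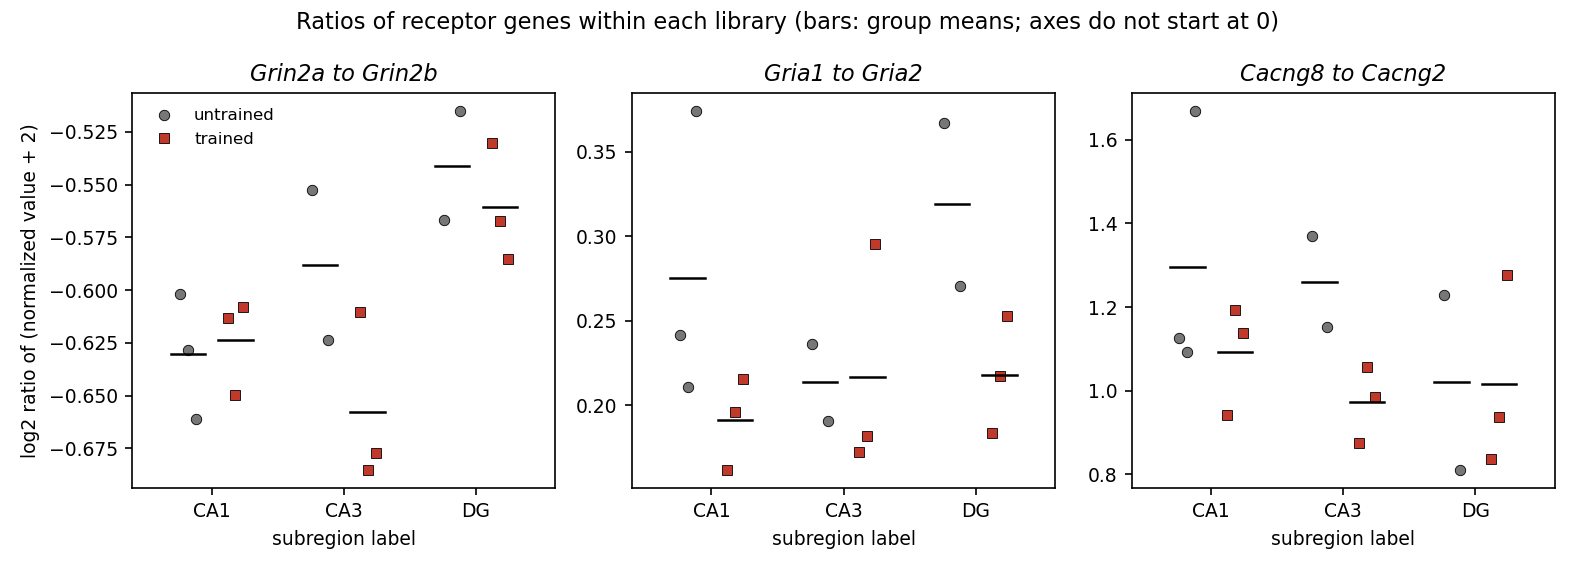
Log2 ratio of the normalized values, each plus 2, of Grin2a to Grin2b, Gria1 to Gria2 and Cacng8 to Cacng2 within each library (y axes, which do not start at 0) by subregion label (x axis), with untrained libraries as grey circles, trained libraries as red squares and group means as bars. The 5 DG libraries lie above the 6 CA1 libraries for Grin2a to Grin2b.

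Across the 16 libraries some of the genes moved together. The highest Pearson correlation of log2 values among the 45 pairs was 0.913, between Grin2a and Grin2b, followed by 0.891 between Gria1 and Grin2a and 0.863 between Gria1 and Grin2b. The lowest was -0.574, between Gria4 and Grin2a. Outside the 10, the most similar gene was Sipa1l1 for Gria1 (r = 0.897), Brwd1 for Gria2 (0.892), Kmt5b for Gria3 (0.909) and Fstl1 for Gria4 (0.812). It was Shisa7 for Grin2a (0.919), Atxn7 for Grin2b (0.910), Rims2 for Cacng2 (0.896), Creg2 for Cacng3 (0.850) and Urm1 for Cacng8 (0.808). These are the highest of 8873 correlations each, over libraries that share animals, subregions and training, and they are given as a description. Shisa7 itself encodes an auxiliary protein of AMPA and GABA-A receptors.

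Promoters are shown for Grin1 and Gria2, the genes of the subunit common to NMDA receptors and of the subunit that sets calcium permeability of AMPA receptors. RefSeq promoters of GRCm38.p6 matched 6 of the 10 genes. The 250 bases before the start of Grin1 (chr2:25319188-25319437, minus strand) and of Gria2 (chr3:80802836-80803085, minus strand) are printed 5′ to 3′, with capitals for the E-box CACGTG.
Grin1: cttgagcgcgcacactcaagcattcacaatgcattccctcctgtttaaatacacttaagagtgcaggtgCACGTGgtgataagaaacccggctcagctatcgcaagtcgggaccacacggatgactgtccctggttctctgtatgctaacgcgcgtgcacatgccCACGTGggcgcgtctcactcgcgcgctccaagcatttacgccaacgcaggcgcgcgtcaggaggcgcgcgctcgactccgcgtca
Gria2: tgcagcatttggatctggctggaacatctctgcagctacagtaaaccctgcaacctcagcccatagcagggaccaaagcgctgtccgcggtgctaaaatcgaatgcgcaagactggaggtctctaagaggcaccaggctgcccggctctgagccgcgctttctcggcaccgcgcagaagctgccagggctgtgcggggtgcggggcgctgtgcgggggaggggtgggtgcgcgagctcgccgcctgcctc
Both are rich in G and C, at 58.8% for Grin1 and 64.8% for Gria2. Grin1 holds 2 copies of CACGTG, which 6.02% of 32851 RefSeq promoters of this length contain, and the other 5 promoters hold none. None of the 6 holds the GC box GGGCGG, present on either strand in 32.7% of promoters, or the cyclic AMP response element TGACGTCA, present in 1.55%. These are matches of letters only. For Cacng2, Cacng3 and Cacng8 the 250 bases lie inside the gene positions given above. Missing motifs there say little of the bases before the start of these genes.

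Genes of the same pathway outside the 10 were counted from a list of 43, of which 41 passed the filter. Over all libraries 4 were called higher in trained mice and 1 lower, against the 6.28% and 4.06% of all genes. Of the 7 genes for kainate receptors, the third class of ionotropic glutamate receptors, and their auxiliary Neto proteins, 3 were called higher. Neto1 rose by 0.40 on the log2 scale (limma adjusted p = 0.00191), and its trained libraries were above the untrained ones in all 3 subregions. Grik4, which encodes GluK4, rose by 0.45 (limma adjusted p = 0.0022) and Grik5, which encodes GluK5, by 0.24 (limma adjusted p = 0.00591). Grik4 is also one of the 4 CA3 pyramidal markers above. Olfm3, which is on the list of AMPA receptor auxiliary genes, fell by 0.42 (limma adjusted p = 0.0281). The fourth higher gene was Dlg2, which encodes the scaffold PSD-93, at 0.12 (limma adjusted p = 0.0277), named here after its value was seen.

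In CA1 4 genes of the list were called higher, where 3.53% of all genes were, and 1 lower, where 1.7% were. Neto1 was 1329, 1204 and 1090 in untrained and 1855, 1666 and 1730 in trained libraries, a rise of 0.54 on the log2 scale (limma adjusted p = 0.000112). Grik4 rose by 0.56 (limma adjusted p = 0.00083) and Grik5 by 0.33 (limma adjusted p = 0.00509). Olfm3 fell by 0.67 (limma adjusted p = 0.0421). The remaining called gene of CA1, Adarb1, which encodes the enzyme that edits Gria2 transcripts, rose by 0.25 (limma adjusted p = 0.00713) and was likewise named after its value was seen. In the same comparison all 4 CA1 pyramidal markers had differences below 0 (median -0.945, with Fibcd1 called lower), the CA3 marker Nectin3 and the neuronal markers Snap25 and Rbfox3 were called higher, and Grik4 itself is on the CA3 marker list. All 3 trained and none of the untrained CA1 libraries had many genes at 0. The part of these properties in the CA1 differences was not tested. In CA3 limma called none of the 41.

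In DG 4 genes of the list were called lower, where 1.66% of all genes were, and none higher, where 1.74% were. All 4 are on the lists of TARPs and other AMPA receptor auxiliary genes used here. Olfm1 was 10359 and 10665 in untrained and 8395, 8592 and 8236 in trained DG, and fell by 0.32 on the log2 scale (limma adjusted p = 0.00331). Prrt2 fell by 0.35 (limma adjusted p = 0.00975) and the TARP Cacng7, which encodes γ-7, by 0.39 (limma adjusted p = 0.0217). Shisa7, the fourth, named after its value was seen, fell by 0.32 (limma adjusted p = 0.037). In the same comparison the granule marker Prox1 fell by 0.31 (limma adjusted p = 0.00965), and the sum of the 4 granule markers was 8696 and 9150 in untrained against 7104 to 7570 in trained DG. The endothelial marker Flt1 and the CA2 marker Pcp4 were also called lower, as given above. All untrained and none of the trained DG libraries had many genes at 0. The part of these properties in the DG differences was not tested. No gene of the delta receptor, other NMDA receptor subunit or AMPA receptor assembly lists was called in any of the 4 training comparisons.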

How the data were processed

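Bulk RNA-seq libraries of CA1, CA3 and DG from trained and untrained mice were analysed, and 2 further untrained libraries were not analysed here. Per the labels and methods, libraries were made by rRNA depletion, although the labels name the molecule as polyA RNA. The authors aligned reads with STAR and estimated counts with Salmon. The submitters' processing notes name GRCm38, bcl2fastq 2.20, FastQC, Trim Galore and DESeq2. The deposited signal is a normalized estimated count per gene, whose normalization is not described. Values are not whole numbers, so that a count test could not be used and depth is unknown.

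Here limma 3.58.1 in R 4.3.3 was run on log2(value + 2), with the variance moderated along a trend on mean level, robust to outlying genes, and p-values adjusted by Benjamini-Hochberg over all genes tested. Genes needed a value of 10 or more in 3 libraries for CA1 and in 2 for the other comparisons. Fold changes on this scale understate those of low genes. Subregion comparisons had training as a term, and interactions used one fit of 6 groups. The fits were checked on simulated data. Alternatives were median-of-ratios rescaling, a pseudocount of 0.5, a looser and a stricter filter, a GC and length correction, one fit of all libraries, replicate or animal blocks, a sex-linked score, a covariate for many genes at 0, and each animal left out. Ratios were compared by exact permutation with scipy 1.17.1. Positions, lengths and GC content came from GENCODE M21 (GRCm38), which held 24464 of 24972 symbols (98.0%).

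The genes, lists and alternatives were chosen with earlier results of these data known. The text names all 10 genes, in each training comparison up to 3 higher and 3 lower called genes of the pathway list with the smallest adjusted p, and for each of the 10 the most alike gene of mean value at least 100 (that of Grin1 is not reported here). A replicate number was taken to mark one animal within a training group. Xist goes against this for untrained number 1, with 10587 in CA3 but 26.1 and 25.5 in CA1 and DG. Libraries of one number did not deviate together (correlations from -0.108 to 0.0921, consensus correlation -0.0355). The paired ratio test, the animal blocks and the fits with 1 animal left out rest on these numbers. Numbers shared across training mark different animals. No libraries held identical values (highest correlation 0.9915). Per-sample libraries come from separate animals within a subregion.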

Additional observations from a re-analysis of the deposited data

Results flagged for a closer look

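In 3 cases a single library lay far from the others of its subregion by Dixon's criterion, out of 50 groups of libraries examined, and chance gives about 1 in 20. Gria3 was 2179 in CA3 trained 3, against 2368 to 2423 in the other 4 CA3 libraries. Cacng3 was 308.6 in CA3 trained 1, against 232.6 to 238.4 in the others. Cacng8 was 760.1 in CA3 trained 3, against 650.4 to 680.3 in the others. All 3 cases were in CA3.

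The training effect differed between CA1 and DG for 4 of the 41 pathway genes tested, as an interaction in limma, where 2.75% of genes were called. Of these, 3 are on the lists of TARPs and other AMPA receptor auxiliary genes used here. The fourth is Adarb1, which encodes an RNA-editing enzyme (0.34, limma adjusted p = 0.0269) and is named after its value was seen. The effect was higher in CA1 than in DG by 0.47 on the log2 scale for Cacng7 (limma adjusted p = 0.0248), by 0.43 for Prrt2 (limma adjusted p = 0.0213) and by 0.34 for Olfm1 (limma adjusted p = 0.0357). In CA1 their differences were 0.09, 0.08 and 0.02, and in DG they were -0.39, -0.35 and -0.32. The libraries with many genes at 0 are the trained ones in CA1 and the untrained ones in DG, so that this split has the same course as the interaction and the 2 cannot be told apart.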

How the results depend on the processing

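Over all libraries 2 of the 10 genes were called. This count was 1 with a GC and length correction, 1 without CA3 untrained 1 and DG trained 3 (an alternative chosen after seeing the data), 0 with the score of sex-linked transcripts as a covariate, and 0 to 2 with 1 animal left out, 0 of them without trained animal 1, trained animal 2 or untrained animal 1. In CA1 it was 1, and 0 to 2 with 1 animal left out. In DG it was 0, and 2 with the GC and length correction, where 604 of 13769 genes were called. The DG fits without untrained animal 1 or 3 left a single untrained library. Between CA1 and DG it was 2, and 0 with that correction or without trained animal 2 (range 0 to 2). For the interaction of CA1 and DG it was 0, and 1 (Cacng2) with that correction, where 1273 of 14484 genes were called. The log2 ratio of Grin2a to Grin2b, -0.0741 between CA1 and DG, was -0.0822 without the same 2 libraries (exact permutation, adjusted p = 0.0857). With 1 animal left out it was -0.0859 to -0.0579 (adjusted 0.0714 to 0.143). Its call (exact permutation, adjusted p = 0.039) held, of the alternatives run, only with a pseudocount of 0.5. The fits with libraries left out cannot decide whether it holds, since too few remained for even full separation to be called.

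With the replicate number as a block, which pairs trained and untrained animals by number only, the count in CA3 was 1 (Grin1, limma adjusted p = 0.00446) in place of 0. That fit called 1160 of 13848 genes, against 118 without the block. With the animal as a block the difference in the log2 ratio of Grin2a to Grin2b between CA1 and DG was -0.0738. Its exact permutation p was 0.0625 (adjusted 0.562), the smallest that 5 animals allow. The block changed no other call of the 10 genes. Correlations between same-numbered libraries across training lay between -0.18 and 0.119. No difference of the 10 genes with an unadjusted p under 0.05 changed sign under any alternative.

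The number of genes called in the whole table moved by over 1.5 times in many cases. Over all libraries it was 1517, and 456 without untrained animal 1, 978 without the 2 libraries and 0 with the sex-linked score. In CA1 it was 710 and between 329 and 1877, in CA3 118 and between 7 and 1160, in DG 473 and between 28 and 1583, and between CA1 and DG 286 and between 17 and 451. Without the filter the median difference of all genes was -0.125 in CA1 and 0.119 in DG. The cause of these changes was not tested. Where an arm was left with 1 library, that library was assumed to vary like the others. Depth is unknown, and CA3 and DG had 2 untrained libraries each.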
